A study of Homo sapiens with 8 samples.

Results

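Nuclear factor κB (NF-κB) is a family of dimeric transcription factors. The messenger RNAs measured here are those of its 5 subunits (NFKB1, NFKB2, REL, RELA and RELB) and of 5 genes grouped here as feedback inhibitors (NFKBIA, NFKBIE, NFKBIZ, TNFAIP3 and BIRC3). The name of the group does not mean that each of the 5 only inhibits NF-κB. The 10 genes were chosen by name, with earlier results of these data known, among 31426 gene symbols on the array. Of the 47322 probes, 16 carry their symbols. The study asked what the ion channel and kinase TRPM7 does to gene expression in human neuroblastoma, a childhood tumor of the neural crest. The cells were SH-EP2, an epithelial-like line, and SH-SY5Y, a neuroblastic line, both derived from the parental line SK-N-SH. Either line had been stably transduced, by lentivirus, with TRPM7 shRNA or with scrambled shRNA as the control, so the control cells also carry a lentiviral shRNA. The labels of the arrays name 1 TRPM7 shRNA, without its sequence. The 4 groups held 2 arrays each, 8 in all. The study's methods state that samples were made and measured in duplicate, but nothing in the sources says whether the duplicates came from separate cultures. The p-values rest on the spread between duplicate arrays, shared over groups and probes, and that spread may be technical.

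In resting cells, NF-κB dimers are held in the cytoplasm by I-κB proteins, of which NFKBIA encodes I-κBα and NFKBIE encodes I-κBε. Receptors for cytokines such as tumor necrosis factor activate the I-κB kinases, the I-κB proteins are degraded, and the freed dimers enter the nucleus and switch on genes for chemokines, cytokines and NF-κB's own inhibitors. The subunits are mostly regulated through protein processing and location, whereas the inhibitor messages are commonly read as targets of the pathway.

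The arrays were Illumina HumanHT-12 v4 BeadChips, which give 1 bead signal per probe and a detection p-value against negative control beads. A probe was taken as detected on an array when that p-value was under 0.05, and between 40.8% and 44.2% of the probes were detected per array. Values below are log2 normalized signals, which can be compared across arrays for 1 probe but not between probes. A probe was called changed when its limma p-value, adjusted by Benjamini-Hochberg over all 47322 probes, was under 0.05. The probe for TRPM7 itself fell short of detection on all 8 arrays (detection p-values from 0.0753 to 0.201), so knockdown could not be checked on these arrays. The paper measured TRPM7 messenger RNA in both lines by quantitative PCR and refers to a supplementary figure for the knockdown. Markers differed between the lines: of 8 noradrenergic neuroblastoma markers, 7 were detected on both SH-SY5Y control arrays and 3 on both SH-EP2 control arrays, against 5 and 8 of 8 mesenchymal markers. In SH-EP2 against SH-SY5Y control cells, 7 mesenchymal markers were called higher and 1 lower, and 0 noradrenergic markers higher and 7 lower.

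In SH-EP2 cells, 4 of the 5 feedback inhibitors rose with TRPM7 shRNA, and no subunit passed the test. Of the 10 members, 4 were called higher and 0 lower, and these were NFKBIZ, TNFAIP3, NFKBIE and NFKBIA. Over all probes, 1.48% were called higher and 1.54% lower in this comparison. Since low probes rarely pass, the share was also taken among probes detected on all 4 SH-EP2 arrays, where 3.58% were called higher, against 4 of the 9 members so detected (all except REL). All 4 called members were inhibitors, and none of the 5 subunits was called by limma, with 1 of them (NFKB2) at an unadjusted p under 0.05. No test compared the inhibitors with the subunits. Because the members were chosen with earlier results of these data known, the shares beside their counts are a description and no independent support. The log2 difference of NFKB2 (1.05) was larger than those of the called NFKBIE (0.98) and NFKBIA (0.76). The 5 inhibitors had a median log2 difference of 0.98, beside 0.01 over all probes. The 4 detected subunits had differences from 0.04 to 1.05, and no median is given for the subunits because it would fall on REL, which was undetected. In RNA from whole cultures, a change in every cell and a change in the share of cells that express a gene cannot be told apart.

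NFKBIZ encodes I-κBζ, a nuclear I-κB protein that is made after stimulation and that steers NF-κB on a subset of its targets. Its log2 signal (probe ILMN_1719695) was 5.80 and 5.20 on the SH-EP2 control arrays and 8.12 and 8.17 on the TRPM7 shRNA arrays. Before any normalization, the deposited signals were 172 and 145 in control cells and 392 and 402 in TRPM7 shRNA cells. Both TRPM7 shRNA arrays were well above both control arrays, with no overlap. The log2 difference was 2.65 (SE 0.28, adjusted p = 8.3e-06 by limma), or 6.27-fold, the largest of the members. A second NFKBIZ probe was undetected in these cells.

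TNFAIP3 encodes A20, a ubiquitin-editing enzyme that shuts down signaling from the tumor necrosis factor receptor. On the SH-EP2 control arrays its log2 signal (probe ILMN_1702691) was 5.17 and 4.53, and on the TRPM7 shRNA arrays 6.75 and 6.51. The groups did not overlap, and the log2 difference was 1.78 (SE 0.39, adjusted p = 0.0112 by limma), or 3.43-fold. Of the 4 calls it was the only one lost by leaving out a single array, in 3 of the 4 fits without 1 SH-EP2 array: without control replicate 2 (1.45, adjusted p = 0.195), TRPM7 shRNA replicate 1 (1.66, adjusted p = 0.191) and TRPM7 shRNA replicate 2 (1.90, adjusted p = 0.102). Over all alternatives its limma adjusted p ran from 4.8e-06 to 0.195.

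The classical I-κB genes rose by less. NFKBIE (probe ILMN_1717313) stood at 6.41 and 6.57 in SH-EP2 control cells and at 7.52 and 7.42 in TRPM7 shRNA cells, a log2 difference of 0.98 (SE 0.17, adjusted p = 0.00185 by limma), or 1.97-fold. NFKBIA, measured by a bright probe (ILMN_1773154), stood at 11.19 and 11.10 in control cells and at 11.95 and 11.87 in TRPM7 shRNA cells. Its log2 difference was 0.76 (SE 0.09, adjusted p = 2.8e-05 by limma), or 1.70-fold. For both genes the 2 TRPM7 shRNA arrays lay close together and above both control arrays.

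BIRC3 encodes cIAP2, a ubiquitin ligase at the tumor necrosis factor receptor, and its probes differed in what they showed. The brightest (ILMN_2405684) read 6.86 and 6.56 in SH-EP2 control cells and 7.05 and 7.27 in TRPM7 shRNA cells, without overlap, but the log2 difference of 0.45 (SE 0.16) did not pass (adjusted p = 0.194 by limma). A second probe (ILMN_1776181) read 4.95 and 4.91 in control cells and 6.49 and 6.87 in TRPM7 shRNA cells. Its log2 difference of 1.75 (SE 0.45) was called (adjusted p = 0.0381 by limma), and the remaining probe was not detected in SH-EP2 cells. BIRC3 was counted by its brightest probe and therefore not among the 4 called members.

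Among the subunits, NFKB2, which encodes the p100 precursor of p52 in the non-canonical pathway, had the largest difference. Its brightest probe read 5.80 and 6.34 in SH-EP2 control cells and 7.21 and 7.03 in TRPM7 shRNA cells. A second probe read 6.23 and 6.44 against 7.12 and 7.16, and the remaining probe was undetected. On both probes the TRPM7 shRNA arrays were higher without overlap, by 1.05 (SE 0.36) and 0.80 (SE 0.27) on the log2 scale, yet neither passed (adjusted p = 0.154 for each by limma). NFKB2 passed under 4 of its 17 alternatives, with normexp, with neqc, without background correction and with SH-EP2 fitted alone, and its adjusted p ran from 2.9e-04 to 0.601.

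RELB, the usual partner of p52, read 6.68 and 6.47 in SH-EP2 control cells and 7.26 and 7.02 in TRPM7 shRNA cells. The groups did not overlap, but the log2 difference of 0.56 (SE 0.32, 95% interval -0.11 to 1.24) did not pass (adjusted p = 0.519 by limma). It passed without background correction and with SH-EP2 fitted alone, within a range of adjusted p from 0.0225 to 0.860. NFKB1, which encodes p105, the precursor of p50, read 10.65 and 10.66 in control cells and 10.78 and 10.62 in TRPM7 shRNA cells. The groups overlapped and the 95% interval of the difference ran from -0.15 to 0.24. RELA, which encodes p65, the main activating subunit, also overlapped, at 5.62 and 5.97 against 6.13 and 5.58. Its interval was wider, from -0.62 to 0.74. REL was not detected on any SH-EP2 array by either of its 2 probes, so no fold is given.

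How firmly these calls hold depends on how the variance is modeled and their size on how the background is removed. With limma's variance trend on signal left out, 0 of the 10 members was called, with adjusted p of 0.0592 for NFKBIZ, 0.114 for TNFAIP3, 0.117 for NFKBIE and 0.179 for NFKBIA. With no background correction all 4 were still called, but the log2 differences shrank to 1.32 for NFKBIZ, 0.57 for TNFAIP3 and 0.51 for NFKBIE, while NFKBIA stood at 0.74. Averaging both NFKBIZ probes gave 1.41.

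NFKBIZ, TNFAIP3 and NFKBIA, all called higher in SH-EP2 cells, hold NF-κB motifs upstream of their start sites. Their sequences are printed, with that of BIRC3, of which only the second probe was called. The RefSeq windows (GRCh38.p14) hold the 250 bases before the transcription start and were found for 8 of the 10 members, in 13 windows, and not for RELB and NFKBIE. Each was searched on both strands for the NF-κB consensus, a degenerate motif of 10 bases, with overlapping matches merged. NFKBIA (chr14:35404750-35404999, minus strand) has 1 match, from -81 to -72, and NFKBIZ (chr3:101827740-101827989, plus strand, the first of its 2 start sites) has 1 from -223 to -214. TNFAIP3 (chr6:137867009-137867258, plus strand) has a pair, from -67 to -58 and from -55 to -46. BIRC3 (chr11:102317234-102317483, plus strand), whose second probe rose, also has a pair, from -199 to -190 and from -135 to -126. Capitals mark the matches, and each sequence runs 5′ to 3′ on the strand of the gene.
NFKBIA: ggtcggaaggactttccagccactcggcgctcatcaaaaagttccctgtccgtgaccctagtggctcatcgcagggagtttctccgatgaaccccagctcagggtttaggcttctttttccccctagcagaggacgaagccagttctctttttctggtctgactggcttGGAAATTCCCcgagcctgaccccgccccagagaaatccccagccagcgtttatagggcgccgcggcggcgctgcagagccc
NFKBIZ: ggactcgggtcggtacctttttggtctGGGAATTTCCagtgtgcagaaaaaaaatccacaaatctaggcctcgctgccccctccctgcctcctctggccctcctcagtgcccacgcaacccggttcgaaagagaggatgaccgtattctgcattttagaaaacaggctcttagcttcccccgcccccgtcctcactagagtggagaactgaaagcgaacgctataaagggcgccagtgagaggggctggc
TNFAIP3: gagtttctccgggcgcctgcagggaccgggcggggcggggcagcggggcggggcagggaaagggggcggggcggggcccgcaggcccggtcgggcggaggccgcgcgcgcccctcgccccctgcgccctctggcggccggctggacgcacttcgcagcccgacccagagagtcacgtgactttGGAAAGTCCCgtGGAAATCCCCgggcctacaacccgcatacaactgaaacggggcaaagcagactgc
BIRC3: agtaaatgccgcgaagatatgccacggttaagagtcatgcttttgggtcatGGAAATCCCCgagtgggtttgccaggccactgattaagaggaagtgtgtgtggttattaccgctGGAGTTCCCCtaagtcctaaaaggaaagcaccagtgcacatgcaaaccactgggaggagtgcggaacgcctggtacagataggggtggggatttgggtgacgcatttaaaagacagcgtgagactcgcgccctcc

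A match was present in 9 of the 13 member windows and in 7 of the 8 genes, against 5.21% of 35116 windows and 6.28% of 27305 genes in the same RefSeq table. Members that did not pass the test held matches too. NFKB1 (from -49 to -40), NFKB2 (windows of 2 of its 3 start sites) and REL (from -47 to -37) each hold at least 1 match, and RELA was the only one of the 8 without one in either of its 2 windows. A match is a stretch of letters in this window and was not tested as a binding site.

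In SH-SY5Y cells, TRPM7 shRNA moved 1 of the 10 members past the threshold, and it moved down. NFKBIA read 9.95 and 9.76 in control cells and 9.39 and 9.53 in TRPM7 shRNA cells, without overlap, a log2 difference of -0.39 (SE 0.09, adjusted p = 0.0210 by limma). Before any normalization its deposited signals overlapped, at 1184 and 789 in control and 794 and 964 in TRPM7 shRNA cells. In this comparison 2.11% of all probes were called in either direction, 382 higher and 617 lower. With median scaling in place of quantile normalization the split was 553 higher and 284 lower, and NFKBIA was no longer called (-0.26, adjusted p = 0.386). The call was also lost with the replicate block, without the variance trend, with SH-SY5Y fitted alone, and on leaving out replicate 1 of either group, and over all alternatives its adjusted p ran from 0.0122 to 0.517.

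Neither NFKBIZ nor NFKBIE passed in SH-SY5Y cells. NFKBIZ read 4.78 and 5.14 in control cells and 3.74 and 4.63 in TRPM7 shRNA cells, where the 2 arrays lay far apart. Before any normalization NFKBIZ overlapped, with deposited signals of 141 and 132 in control and 128 and 145 in TRPM7 shRNA cells. Its log2 difference was -0.78 (SE 0.28, adjusted p = 0.230 by limma), but it was called without TRPM7 shRNA replicate 2 (-1.21, adjusted p = 0.0464, in a range from 0.0464 to 0.927 over its alternatives). NFKBIE read 6.35 and 6.09 against 6.58 and 6.56, a log2 difference of 0.35 (SE 0.17, adjusted p = 0.470 by limma). TNFAIP3 was detected on 1 of the 4 SH-SY5Y arrays, a control, at 3.27, so no fold is given, and the brightest BIRC3 probe overlapped at 8.31 and 7.89 against 8.09 and 8.07.

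The subunits of SH-SY5Y cells did not pass either, 0 of 5 by limma, with NFKB1 alone at an unadjusted p under 0.05. NFKB1 read 9.58 and 9.44 in control cells and 9.18 and 9.16 in TRPM7 shRNA cells, lower without overlap. Its log2 difference was -0.34 (SE 0.09, adjusted p = 0.0633 by limma), and it passed with normexp, with neqc and among detected probes, in a range from 0.0294 to 0.568. NFKB2 overlapped at 3.55 and 4.57 against 4.26 and 3.16, and RELA overlapped at 4.77 and 5.62 against 5.73 and 4.75. RELB was undetected throughout SH-SY5Y cells. REL was detected on 1 of the 2 arrays of each SH-SY5Y group.

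**Figure D1:**
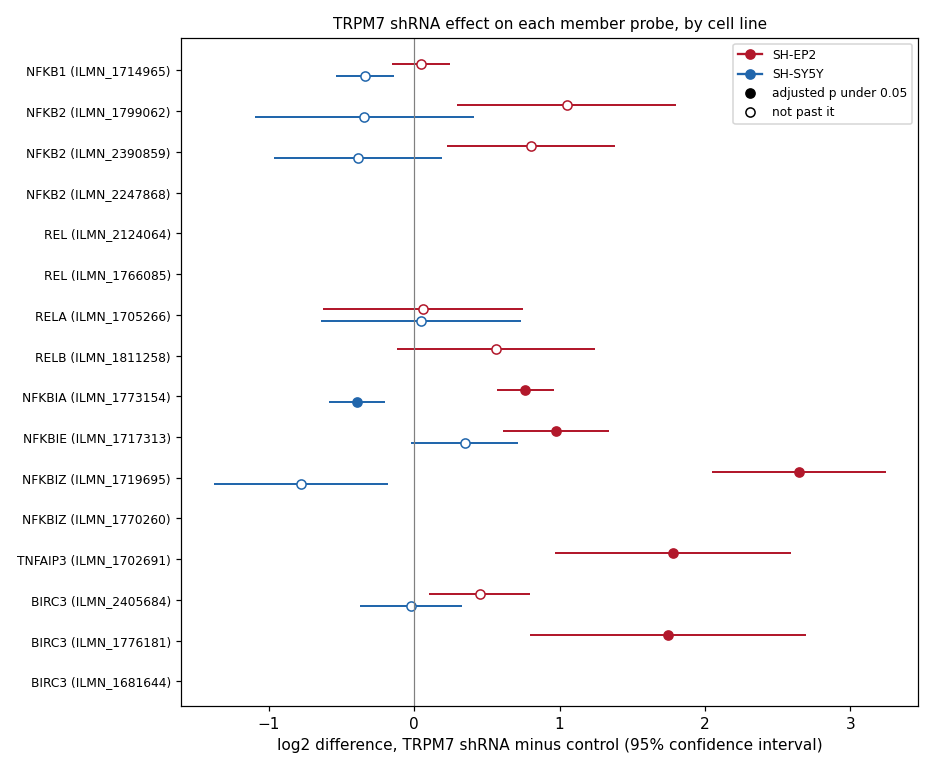
Log2 difference between TRPM7 shRNA and control cells for each member probe, in SH-EP2 (red) and SH-SY5Y (blue), with 95% confidence intervals from limma. Filled points have an adjusted p under 0.05, and a probe has no point in a line where neither group was detected on both arrays. The filled red points of NFKBIA, NFKBIE, NFKBIZ, TNFAIP3 and the second BIRC3 probe lie above 0, and the filled blue point of NFKBIA, at -0.39, lies below it.

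The TRPM7 shRNA effect differed between the lines for 3 of the 10 members, tested as an interaction across all probes, of which 1.4% were called (662 in all, 375 of them with the larger value in SH-EP2, and 182 of 491 with median scaling). For NFKBIZ the effect in SH-EP2 exceeded that in SH-SY5Y by 3.43 on the log2 scale (SE 0.40, adjusted p = 4.3e-05 by limma). Without background correction this excess was still called, but it shrank to 1.45. For NFKBIA the excess was 1.16 (SE 0.13, adjusted p = 2.0e-05 by limma), with a rise in SH-EP2 and a fall in SH-SY5Y cells. For TNFAIP3 it was 2.74 (SE 0.54, adjusted p = 0.00971 by limma), but this is a fitted value and not a measured size, since the probe was undetected on 3 of the 4 SH-SY5Y arrays, and without background correction it was 0.72. The TNFAIP3 call was lost without SH-EP2 control replicate 2, SH-EP2 TRPM7 shRNA replicate 1 or 2, or the variance trend, in a range of adjusted p from 5.5e-05 to 0.141. The excess did not pass for NFKBIE (0.63, 95% interval 0.12 to 1.14), NFKB2 (1.39, 0.33 to 2.45), NFKB1 (0.39, 0.11 to 0.66), BIRC3 (0.47, -0.01 to 0.95) or RELA (0.01, -0.95 to 0.98), with adjusted p from 0.220 to 0.996. These intervals are not adjusted for the number of probes, and those of NFKBIE, NFKB2 and NFKB1 lie above 0.

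Between the lines at baseline, members were called about as often as other detected probes, and 3 subunits and 2 inhibitors were called higher in SH-EP2 cells. Comparing the scrambled shRNA controls, 5 of the 10 members were called higher and 1 lower in SH-EP2 than in SH-SY5Y, where 12.2% of all probes were called higher and 14% lower. Calls between the lines were far more common among detected probes. Of the 23961 probes detected on at least 2 arrays, fitted alone, 12803 were called, 5970 higher and 6833 lower. There 6 of the 10 members were called, which is near the share of all these probes. The higher members were RELB, NFKB2, NFKB1, NFKBIA and TNFAIP3. RELB was at least 10.7-fold higher (adjusted p = 1.4e-09 by limma), a bound because it was not detected in SH-SY5Y cells, measured against the lowest signal of detected probes. Such bounds hold for the background correction used here: without it the RELB difference was 0.92 on the log2 scale, from deposited signals of 218 and 192 against 111 and 97.4. NFKB2 was higher by 2.01 (SE 0.36) on its brightest probe and by 2.45 (SE 0.27) on the second, NFKB1 by 1.15 (SE 0.09), NFKBIA by 1.29 (SE 0.09) and TNFAIP3, detected on 1 of the 2 SH-SY5Y control arrays, by 1.86 (SE 0.39). Without background correction all 5 were still called, NFKB2 at 0.48, TNFAIP3 at 0.27, NFKB1 at 1.04 and NFKBIA at 1.20. None of these groups overlapped.

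The BIRC3 probes disagreed in direction between the lines. The brightest was lower in SH-EP2, by -1.39 (SE 0.16), while the second, not detected in SH-SY5Y, was at least 3.42-fold higher in SH-EP2 (adjusted p = 1.0e-04 by limma), and the mean over the probes gave 0.20. RELA (0.60, SE 0.33), NFKBIE (0.27, SE 0.17) and NFKBIZ (0.54, SE 0.28) did not pass. The labels give 1 culture medium for both lines and the study's methods give a different one for each, so line and medium cannot be told apart. Interferon response genes were also higher in SH-EP2 control cells, in 12 of 12, with a median log2 difference of 3.24, and their part in these differences was not tested.

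The order of the 4 groups differed between members. For NFKBIZ and NFKBIE, the SH-EP2 TRPM7 shRNA cells stood alone at the top, at 8.15 ± 0.03 and 7.47 ± 0.07 (mean ± SD, n = 2), and the pairs tested among the other groups did not pass. For NFKBIA the order was SH-EP2 TRPM7 shRNA (11.91 ± 0.05), SH-EP2 control (11.15 ± 0.07), SH-SY5Y control (9.85 ± 0.14) and SH-SY5Y TRPM7 shRNA (9.46 ± 0.10), each step called in the main fit. Without the variance trend the steps within each line were not called, and the SH-SY5Y step was also lost under the other alternatives given above. For NFKB1, NFKB2 and RELB, the 2 SH-EP2 groups lay above the 2 SH-SY5Y groups, and within a line the differences did not pass. Among the members NFKBIZ had the largest called TRPM7 shRNA difference, and the probes whose pattern over the 8 arrays was most like it were those of KLRC2, PAGE1, TDO2, INPP5D and ACOX2. Their root-mean-square differences from it, after each probe's own mean was subtracted, ran from 0.38 to 0.50 on the log2 scale.

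Around the members, the pathway's other inhibitors and kinases were counted too. For scale, 1.48% of all probes were called higher and 1.54% lower in SH-EP2 cells, and 2.11% in either direction in SH-SY5Y cells. No test set the counts against these shares. Of 16 other I-κB proteins and inhibitors, none was called in either line by limma. In SH-EP2 cells 1 of the 16 was higher and 1 lower at an unadjusted p under 0.05, and in SH-SY5Y cells 2 were lower. BCL3, a nuclear I-κB protein, moved by 0.39 in SH-EP2 (adjusted p = 0.460), and TNIP1, a partner of A20, by 0.31 (adjusted p = 0.258). Of 30 kinases and adaptors, 1 rose and 1 fell in SH-EP2 cells. IRAK2, a kinase of interleukin-1 receptor signaling, rose by 1.75 (adjusted p = 0.00654), and TRAF5, an adaptor of tumor necrosis factor receptors, fell by 0.53 (adjusted p = 0.0406). None of the 30 was called by limma in SH-SY5Y cells, where 6 were lower and 0 higher at an unadjusted p under 0.05. IKBKB, the catalytic I-κB kinase β, moved by 0.05 in SH-EP2 cells and 0.12 in SH-SY5Y cells.

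Calls among ligands and targets depended on which genes could be measured. Of the 24 receptors and membrane ligands, 6 were undetected on both SH-EP2 control arrays and 17 on both SH-SY5Y ones, and of the 25 secreted targets 14 and 16 were. No test compared the lists or the lines. In SH-EP2 cells 1.48% of all probes were called higher and 1.54% lower, and 3.58% were called higher among probes detected on all 4 SH-EP2 arrays. Of the receptors and membrane ligands, 3 rose in SH-EP2 cells and 1 fell: IL1A (by 3.72, adjusted p = 2.0e-05), encoding interleukin-1α, LTB (by 3.05), encoding lymphotoxin β, and TNFRSF9 (by 0.98), a costimulatory receptor, rose, and TNFRSF12A, the receptor of TWEAK, fell by 0.81. TNF was not detected in either line. Of 25 secreted targets, 11 rose and 0 fell in SH-EP2 cells. By fitted difference they were led by the chemokine genes CCL7 (at least 15.8-fold) and CXCL1 (by 4.73 on the log2 scale), the cytokine subunit gene EBI3 (at least 7.24-fold) and CXCL2 (at least 7.33-fold). The folds are linear lower bounds and cannot be ranked against the log2 differences. Of 24 intracellular and membrane targets, 5 rose and 1 fell, with IER3 at 1.85, ZC3H12A (the RNase regnase-1) at 1.83, CD83 at 1.13 and SOD2 (mitochondrial superoxide dismutase) at 0.95.

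In SH-SY5Y cells, these 3 lists held 0 genes called higher and 5 called lower by limma. These were CCL2 (by -2.61 on the log2 scale) among the secreted targets, where 1 gene was higher at an unadjusted p under 0.05, and TNFRSF12A (by -0.78) among the receptors. The others were TAP1 (at least 5.0-fold lower, a linear bound), KLF6 (by -0.73) and TAPBP (by -0.56) among the other targets. CCL2 was called higher in SH-EP2 cells (by 1.06), and TNFRSF12A was called lower in both lines. Calls over all probes in SH-SY5Y cells also leaned down, with 382 higher and 617 lower. With median scaling the split was 553 higher and 284 lower. The list calls were not repeated under the alternatives, so their direction was not checked there. The lists were fixed by their names and not by how they moved, but they were drawn up with earlier results of these data known.

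Markers of other cells and of interferon signaling were set beside the SH-EP2 result. Of 8 blood cell and endothelial markers, 5 were detected on both arrays of SH-EP2 control cells and 3 on both of TRPM7 shRNA cells, with CD3E, FCGR3A and CDH5 undetected in control cells. Their mean log2 signal ran from 4.19 to 4.30 in control cells and from 3.84 to 3.86 in TRPM7 shRNA cells, and the 1 marker that passed, CD14, fell by 2.03. Of 12 interferon response genes, 2 rose in SH-EP2 cells, IFI44 (by 0.91) and IFI44L (by 1.19), where 1.48% of all probes were called higher. The mean of the 12 genes ran from 7.71 to 7.76 in control cells and from 7.995 to 8.03 in TRPM7 shRNA cells. Their part in the rise of the inhibitors was not tested.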

How the data were processed

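Total RNA of SH-EP2 and SH-SY5Y cells, control or TRPM7 shRNA, was hybridized by the study to Illumina HumanHT-12 v4 arrays. The authors extracted the deposited linear signal intensity of each probe, with its detection p-value, in GenomeStudio 2011.1, without normalization between arrays and without pooling. Per the study's methods, the authors used Robust-Multi-Array normalization, which was therefore rebuilt here: background correction per array (estimated background 98.3 to 111), quantile normalization over the 8 arrays, and log2.

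All 47322 probes were fitted in limma 3.58.1 (R 4.3.3) with 4 group means and a variance trend on signal. Contrasts compared TRPM7 shRNA with control in each line, these 2 effects with each other, and the control cells of the lines. Benjamini-Hochberg adjustment ran over all probes, and the fit was tested on simulated data. The probe of highest mean signal represents a gene. A fold is a bound where 1 group was undetected on both arrays: the brighter mean over the lowest signal among detected probes. Values need detection on both arrays of at least 1 group. Signal near background compresses or inflates differences with the correction used, and 2 arrays per group limit the precision.

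Members and lists were chosen with earlier results of these data known. All members are named, and from each list the called genes, at most 4 by size per line, whose groups did not overlap, with at most 2 others. A blood cell marker of the lists is not reported here. Alternatives were normexp (offset 50), neqc (offset 16), no background correction, median scaling, detected probes, no trend, a replicate block, each line alone, a mean over probes, and leaving out each array. Same-numbered arrays did not deviate together (over 14577 probes detected on all arrays, r was -0.0045 for SH-EP2 and -0.11 for SH-SY5Y), so the numbers were not used as pairs.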

Additional observations from a re-analysis of the deposited data

Results flagged for a closer look

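The TRPM7 shRNA effect in SH-EP2 cells was tested against that in SH-SY5Y cells, and it differed for 3 of the 10 members. The effect was larger in SH-EP2 by 3.43 for NFKBIZ (adjusted p = 4.3e-05 by limma), by 2.74 for TNFAIP3 (adjusted p = 0.00971) and by 1.16 for NFKBIA (adjusted p = 2.0e-05), on the log2 scale. Without background correction the NFKBIZ excess was 1.45 and the NFKBIA excess 1.08. For NFKBIZ and NFKBIA, both SH-EP2 TRPM7 shRNA arrays lay above their controls and both SH-SY5Y ones below theirs, on the normalized scale. Before any normalization, the deposited signals of the 2 SH-SY5Y groups overlapped for both genes. Without background correction the NFKBIZ difference in SH-SY5Y cells was -0.13. NFKBIZ was not called for this difference when its probes were averaged (1.55, adjusted p = 0.122), since its second probe was not detected on any array, in a range of adjusted p from 9.1e-10 to 0.122 over its alternatives. TNFAIP3 was detected on 1 of 4 SH-SY5Y arrays, so its 2.74 is a fitted value that gives no measured size of a difference between the lines. It was 0.72 without background correction, and the call was lost in 3 of the fits that left out 1 array.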

How the results depend on the processing

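Of 560 single member values under an alternative, 512 kept their direction and their side of the threshold, 20 lost the call, 13 gained it and 15 changed sign. The SH-EP2 count of 4 called members and the count of 3 whose effect differed between the lines both fell to 0 without the variance trend, and the SH-SY5Y count of 1 fell to 0 there too. Under the other alternatives these counts stayed from 4 to 6 and from 2 to 4, and with 1 array left out from 3 to 4 and from 2 to 3. The SH-SY5Y count became 2 with normexp, with neqc and among detected probes, 0 with median scaling, with the line alone and with the replicate block, and 0 to 2 with 1 array left out. Pairing the arrays by number ended no call in SH-EP2, but lost NFKBIA in SH-SY5Y (adjusted p = 0.0536) and called NFKBIZ between the control cells of the lines (adjusted p = 0.0260, in a range from 0.0260 to 0.733). A crossed pairing in SH-SY5Y, chosen after seeing the data because same-numbered arrays correlated below 0, gave 2.

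The values that changed sign were all uncalled except BIRC3 between the control cells of the lines, which gave 0.20 as a mean over its probes. With median scaling, BIRC3 in SH-SY5Y was 0.15 and the RELA difference between the lines -0.16. With 1 array left out, BIRC3 in SH-SY5Y ran from -0.23 to 0.19, NFKB1 in SH-EP2 from -0.037 to 0.13, NFKB2 in SH-SY5Y from -0.89 to 0.20, RELA in SH-EP2 from -0.21 to 0.33, RELA in SH-SY5Y from -0.44 to 0.54 and its difference between the lines from -0.48 to 0.50. The cause of these changes was not tested.

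Over all probes, 1429 were called in SH-EP2, 999 in SH-SY5Y and 662 for the difference between the lines, and without the variance trend 100, 64 and 23. With SH-EP2 alone 2587 were called there, and 1248 differed between the lines without background correction. Signal over background limits REL, RELB and TNFAIP3 in SH-SY5Y, where levels were at or under detection.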
